A study of Caenorhabditis elegans with 43 samples.

Results

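Larvae carrying let-7(n2853) were compared with larvae that also carry lin-41(xe11), the strain written lin-41(xe11);let-7(n2853) and called the double mutant here, at 28, 30, 32, 34 and 36 h of growth. The 10 libraries, 5 per strain, were chosen by strain and hour from the 43 of the series and were paired by hour. Both strains carry n2853, and xe11 is the allele that sets them apart in the labels. The 5 libraries of the wild type N2 at the same hours gave the level against which a let-7(n2853) change was read, and the 18 to 26 h libraries of the same strains gave an earlier window. The lin-41(xe11) single mutant, which has wild-type let-7, entered the fit with its 10 libraries from 18 to 36 h. All larvae had hatched without food, were arrested at the first larval stage and were then grown on bacteria at 25 °C, and RNA from whole worms was sequenced after removal of ribosomal RNA. There was 1 library per strain and hour. Whether the hours of a strain are separate cultures is not given, so the scatter among these libraries may be technical. Each p rests on that scatter, which also holds any change of a strain difference over the hours of a window.

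let-7 is a microRNA that accumulates late in larval life and ends larval cell fates, above all in the epidermis. Its best known target is lin-41, whose TRIM-NHL protein binds RNA and lowers the output of a small set of mRNAs. The n2853 allele is a temperature-sensitive base change in the seed of let-7, the stretch that pairs with targets. The xe11 allele changes the let-7 sites in the 3′ UTR of lin-41 so that the mutant microRNA can pair with them again, while other targets keep sites that pair poorly with it. let-7 mutants fail the switch from larva to adult, and at the restrictive temperature they burst through the vulva.

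The let-7(n2853) libraries held 25763557 to 29733057 counts, against 12740611 to 15668890 in the double mutant and 12586079 to 15476625 in N2. The sources do not say if the deeper libraries were a preparation of their own, so strain and library batch cannot be told apart. Each let-7(n2853) hour correlated best with the same hour of the double mutant. RNA came from whole worms, so fewer cells of a type and less RNA per cell cannot be told apart. How reads that match several genes were counted, and whether strand was used, is not given, so values of near-identical copies (vit-1 and vit-2, pgp-5 and pgp-6, major sperm protein and histone genes) are uncertain. Levels are CPM, counts scaled to a common library total, and differences are log2 fold changes ± standard error from edgeR's quasi-likelihood test with Benjamini-Hochberg adjusted p over 13295 genes. A gene was called when its adjusted p was under 0.05.

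Between let-7(n2853) and the double mutant, 3059 genes (23% of those tested) were called, 1521 higher (11.4%) and 1538 lower (11.6%) in let-7(n2853). Most were small: 50 genes (0.376%) were at least 2-fold higher and 83 (0.624%) at least 2-fold lower. Against N2, let-7(n2853) had 3064 calls (23%), 1389 higher (10.4%) and 1675 lower (12.6%), of which 56 (0.421%) were at least 2-fold higher and 198 (1.49%) at least 2-fold lower. The double mutant had 117 calls against N2 (0.88%), with 40 higher (0.301%) and 77 lower (0.579%), 6 of them at least 2-fold higher (0.0451%) and 37 at least 2-fold lower (0.278%). These 117 calls became 54 and 47 without the 32 and 34 h libraries of the double mutant and 38 without the 34 h library of N2. With library totals in place of TMM scaling, the median of all genes between let-7(n2853) and the double mutant was 0.105 instead of 0.0127, and 75.3% instead of 49.7% of the calls were higher. The 3 comparisons share libraries, so their values are given side by side and their likeness is not a result.

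The 254 genes that differed at least 2-fold between let-7(n2853) and N2 were sorted by what the double mutant did. A gene was counted as relieved when let-7(n2853) also differed from the double mutant in the same direction and the double mutant was not called against N2. It was counted as partly relieved when both of those comparisons were called, as not relieved when only the double mutant against N2 was called, and as undecided when neither was. The lin-41(xe11) strain was not used for the classes. They therefore do not separate a let-7(n2853) change that remained from a difference that lin-41(xe11) larvae also have. Of the 56 genes that rose, 39 (69.6%) were relieved, 1 was partly relieved, 4 were not relieved and 12 were undecided. Of the 198 genes that fell, 88 (44.4%) were relieved, 22 were partly relieved, 15 were not relieved and 73 were undecided. The median relieved gene that rose stood at 259% of the N2 mean in let-7(n2853) and at 118% in the double mutant. The median relieved gene that fell stood at 36.2% of N2 in let-7(n2853) and at 81.9% in the double mutant. In the double mutant the relieved rises ran from 57.8% to 206% of N2 and the relieved falls from 30.2% to 146%. Adjusted p was computed within each comparison, with 3059 calls between the mutants and 117 for the double mutant against N2. A relieved gene can thus keep a similar but uncalled difference from N2, as mab-10 did (-0.73 between the mutants, -0.80 against N2). The partly relieved falls were deeper, with a median of 1.13% of N2 in let-7(n2853) and 15.7% in the double mutant. That class needs both parts of a fall to be called, which favours deep falls, so its depth is not a result. The falls that were not relieved had medians of 6.33% of N2 in let-7(n2853) and 14.4% in the double mutant. The class sizes moved with single libraries. The 23 partly relieved genes became 15 and 8 without the 34 and 36 h libraries of let-7(n2853), 13, 13 and 9 without the 32, 34 and 36 h libraries of the double mutant, and 14 without the 34 h library of N2. The 19 genes that were not relieved became 30 without the 36 h library of let-7(n2853), 11 and 6 without the 32 and 34 h libraries of the double mutant, and 36, 5 and 10 without the 28, 34 and 36 h libraries of N2. The undecided genes became 55 without the 34 h library of N2, beside 85 with it.

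lin-41 was the 1 rise counted as partly relieved. The annotation of WBcel235 places the gene, WBGene00003026, on chromosome I. Its level at 28, 30, 32, 34 and 36 h was 158, 134, 109, 106 and 107 CPM in let-7(n2853), against 94.8, 104, 69.5, 47.8 and 63.5 CPM in the double mutant and 44, 38.1, 28.5, 29.5 and 38.6 CPM in N2. Every let-7(n2853) library lay above every double mutant library, and every double mutant library lay above every N2 library. The means were 122.7 ± 23 CPM in let-7(n2853), 75.9 ± 23.1 CPM in the double mutant and 35.7 ± 6.58 CPM in N2 (SD, n = 5 each). The difference between let-7(n2853) and the double mutant was 0.73 ± 0.12 (adjusted p = 9.05e-05, higher at 5 of 5 hours), with a 95% interval of 0.48 to 0.98. Against N2 it was 1.78 ± 0.12 for let-7(n2853) (adjusted p = 1.67e-10) and 1.05 ± 0.12 for the double mutant (adjusted p = 1.61e-05), so 41% of the log2 rise was gone in the double mutant. From 18 to 26 h the strains differed by -0.04 ± 0.12 (adjusted p = 0.867). The late difference exceeded the early one by 0.77, which had an unadjusted p of 0.000112 and an adjusted p of 0.248 in edgeR's test. At 36 h lin-41 stood at 169.7% of N2 in the lin-41(xe11) strain and at 164.6% in the double mutant.

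**Figure D1:**
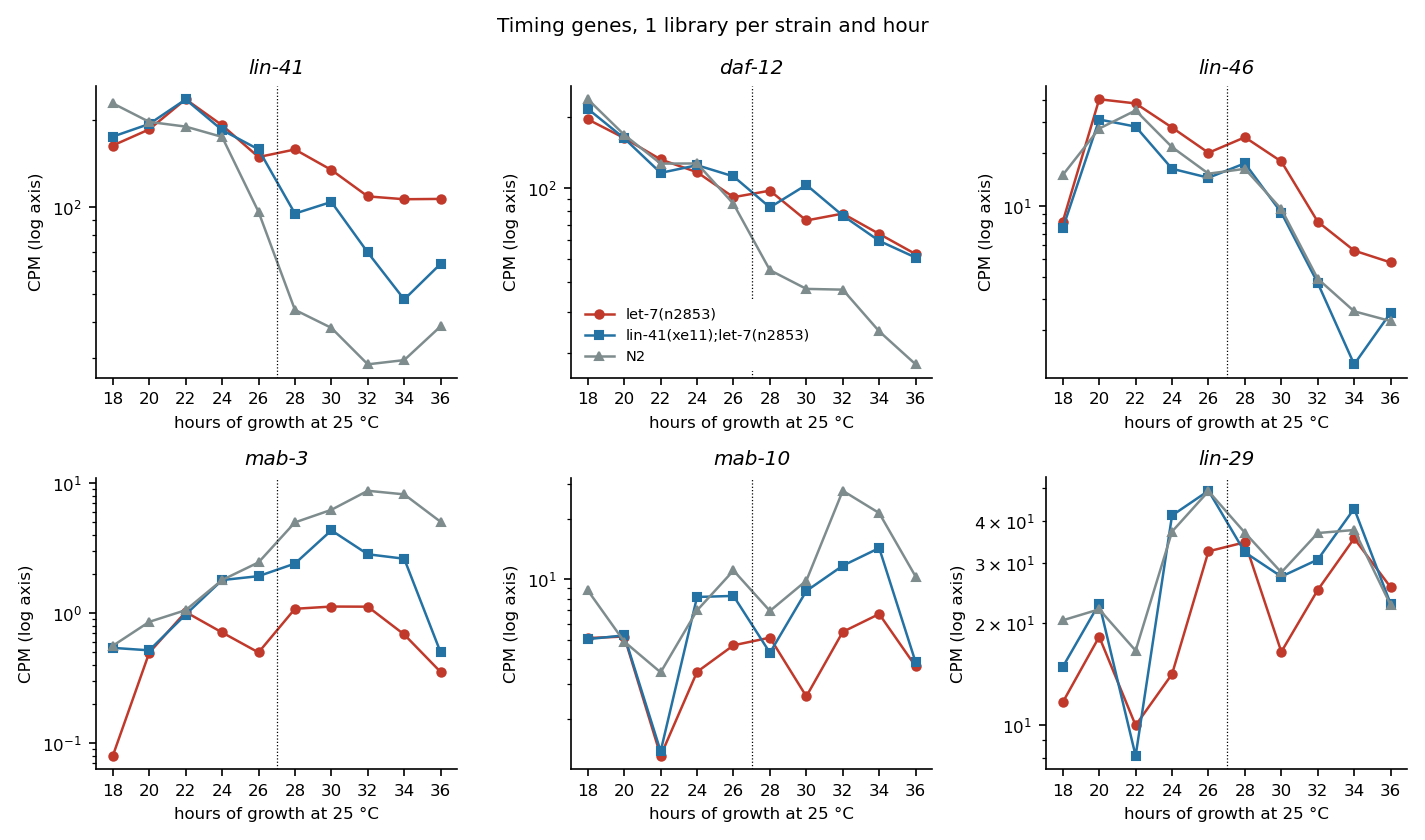
CPM (log axis) of 6 timing genes against hours of growth at 25 °C in let-7(n2853) (red circles), the double mutant (blue squares) and N2 (grey triangles), 1 library per point, with a dotted line between the early and the late window. lin-41 in the double mutant runs between let-7(n2853) and N2 from 28 h, daf-12 runs with let-7(n2853), and lin-46 runs with N2.

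daf-12, which encodes the nuclear hormone receptor for dafachronic acids and is a direct let-7 target, was not relieved. At the 5 late hours it stood at 97.6, 72.9, 78.0, 64 and 52.5 CPM in let-7(n2853), against 82.9, 103, 76.5, 59.8 and 50.8 CPM in the double mutant and 44.9, 37.4, 37.1, 24.7 and 17.9 CPM in N2. The let-7(n2853) and double mutant values overlap, and at every hour both lie above N2. The difference between let-7(n2853) and the double mutant was -0.02 ± 0.09 (adjusted p = 0.906), with a 95% interval of -0.205 to 0.164. Against N2 the rise was 1.21 ± 0.09 in let-7(n2853) (adjusted p = 5.43e-10) and 1.23 ± 0.09 in the double mutant (adjusted p = 1.3e-09). In the lin-41(xe11) strain the daf-12 level of 36.1, 34.4, 32.3, 26.8 and 20.7 CPM lay in the range of N2.

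Of the 10 let-7 targets listed, lin-41 was called higher in let-7(n2853) than in the double mutant, and let-60 and lin-14 were called lower. The shares among all genes were 11.4% higher and 11.6% lower. The list had a median of 0.0247, beside 0.0127 for all genes, and with library totals it had 2 calls higher and 1 lower. Against N2, 4 of the 10 were called higher in let-7(n2853) and 2 in the double mutant, beside 10.4% and 0.301% of all genes. let-60, the worm Ras, differed by -0.28 ± 0.07 (adjusted p = 0.00379), and lin-14, a nuclear factor of early larval fates, by -0.31 ± 0.10 (adjusted p = 0.0351). The lin-14 call was lost without the 30, 32 or 36 h library of let-7(n2853) and without the 30, 34 or 36 h library of the double mutant, at -0.23 to -0.31. hbl-1, a zinc finger factor that holds back the larva-to-adult switch, was 0.43 higher than N2 in let-7(n2853) (adjusted p = 0.0383) and 0.57 higher in the double mutant (adjusted p = 0.0699), with -0.14 ± 0.14 between the mutants (adjusted p = 0.534). nhr-25, a nuclear receptor of the epidermis, was 0.63 higher than N2 in let-7(n2853) (adjusted p = 0.0254) and 0.51 higher in the double mutant (adjusted p = 0.301), with 0.12 ± 0.20 between the mutants (adjusted p = 0.727). nhr-23, die-1, pha-4 and lin-28 were not called between the mutants.

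The other rises that were not relieved were fmo-4, cyp-13A2 and Y48E1B.8. fmo-4, which encodes a flavin-containing monooxygenase, had 484, 240.4, 667, 965 and 523 CPM in let-7(n2853), against 442, 294, 1037, 950.2 and 286 CPM in the double mutant and 360.3, 125, 215, 302 and 311 CPM in N2. Both mutants were highest at 32 and 34 h, and at 36 h the double mutant lay below N2. Its rise against N2 was 1.02 in let-7(n2853) (adjusted p = 0.00122) and 1.06 in the double mutant (adjusted p = 0.0137), with -0.03 ± 0.21 between the mutants (adjusted p = 0.94). For Y48E1B.8 the rise against N2 was 1.12 (adjusted p = 0.000453) in let-7(n2853) and 1.15 (adjusted p = 0.00421) in the double mutant. For cyp-13A2, a cytochrome P450 gene, it was 1.04 (adjusted p = 8.16e-05) in let-7(n2853) and 0.69 (adjusted p = 0.045) in the double mutant. Between the mutants cyp-13A2 differed by 0.35 ± 0.17 (adjusted p = 0.143), higher in let-7(n2853) at 5 of 5 hours, with a 95% interval of 0.00226 to 0.696. At 36 h Y48E1B.8 stood at 347.1% of N2 in the lin-41(xe11) strain, beside 484.5% in the double mutant. fmo-4 and cyp-13A2 stood at 64.3% and 86.7% of N2 in the lin-41(xe11) strain. Without the 36 h libraries of all strains, the rises in let-7(n2853) were 0.82 for Y48E1B.8, 0.79 for cyp-13A2 and 1.125 for fmo-4.

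mab-3 and mab-10 belong to the small group of mRNAs reported as lowered by LIN-41. mab-3, a DM-domain transcription factor that lowers yolk genes in the male intestine, had 1.08, 1.13, 1.12, 0.686 and 0.353 CPM in let-7(n2853), against 2.41, 4.34, 2.84, 2.62 and 0.499 CPM in the double mutant and 4.99, 6.24, 8.74, 8.20 and 5.04 CPM in N2. It was lower in let-7(n2853) than in the double mutant at every hour, and the strains came closest at 36 h, when both were low. The difference between the mutants was -1.50 ± 0.32 (adjusted p = 0.000966, 95% interval -2.16 to -0.844). Against N2 it was -2.97 ± 0.29 in let-7(n2853) (adjusted p = 4.64e-08) and -1.47 ± 0.28 in the double mutant (adjusted p = 0.00426), a partly relieved fall. At 36 h mab-3 stood at 9.38% of N2 in the lin-41(xe11) strain and at 9.91% in the double mutant.

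mab-10, a NAB-type cofactor of LIN-29, had 5.11, 2.60, 5.46, 6.71 and 3.67 CPM in let-7(n2853), against 4.30, 8.75, 11.7, 14.3 and 3.85 CPM in the double mutant and 6.95, 9.84, 27.7, 21.4 and 10.3 CPM in N2. let-7(n2853) was the lower mutant from 30 to 36 h, and the mutants were close at 28 and 36 h. The difference of -0.73 ± 0.26 (adjusted p = 0.0428) was lost without the 30, 32, 34 or 36 h library of let-7(n2853) or the 28, 30, 32 or 34 h library of the double mutant, at -0.55 to -0.80. The mab-10 difference from N2 was -1.53 (adjusted p = 9.05e-05) in let-7(n2853) and -0.80 (adjusted p = 0.155) in the double mutant. At 36 h mab-10 stood at 44.3% of N2 in the lin-41(xe11) strain and at 37.3% in the double mutant. lin-29, which encodes the zinc finger factor that starts adult epidermal fates, differed between the mutants by -0.20 (adjusted p = 0.458) at the late hours and by -0.52 (adjusted p = 0.0389) at 18 to 26 h. The remaining gene of this list, dmd-3, did not pass the filter on low values.

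Of 14 heterochronic genes tested, 2 were higher (lin-41 and lin-46) and 4 lower (lin-66, lin-14, mab-10 and nhl-2) in let-7(n2853) than in the double mutant. The shares among all genes were 11.4% higher and 11.6% lower. The list had a median of -0.20, and with library totals 3 of it were higher and 1 lower. The 4 lower calls became 2 without the 30 h or 1 without the 36 h library of let-7(n2853), and 1 without the 30 h or 2 without the 34 h library of the double mutant. The nhl-2 call was lost without the 36 h library of let-7(n2853) (-0.19) and without the 30 h library of the double mutant (-0.19). lin-46, which acts downstream of lin-28, stood at 24.5, 17.9, 8.16, 5.6 and 4.81 CPM in let-7(n2853), against 17.4, 9.18, 3.68, 1.28 and 2.50 CPM in the double mutant and 16.24, 9.62, 3.88, 2.54 and 2.24 CPM in N2. In all 3 strains the gene was lower at 36 h than at 28 h, and at each hour the double mutant was nearer to N2 than let-7(n2853) was. lin-46 differed by 1.03 ± 0.19 between the mutants (adjusted p = 0.000308) and by 0.95 between let-7(n2853) and N2 (adjusted p = 0.000751), against -0.08 between the double mutant and N2 (adjusted p = 0.911). lin-66, a regulator of lin-28, differed by -0.52 ± 0.13 (adjusted p = 0.00379) late and by -0.40 (adjusted p = 0.0206) early.

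Collagens of the late L4 (last larval stage) and adult cuticle were among the deepest falls. Of the 7 listed L4 and adult cuticle genes that could be tested, all 7 fell in let-7(n2853) against N2. In the double mutant 5 fell against N2, and 3 were lower in let-7(n2853) than in the double mutant. Among all genes the shares called lower were 12.6%, 0.579% and 11.6% in that order. The 3 became 7 without the 28 h library of let-7(n2853), with a median of -2.39, 5 with the double mutant taken 2 h later, and 0 in DESeq2 (median -1.03) or with the double mutant taken 2 h earlier (median -0.588). The list's median was -3.92 for let-7(n2853) against N2, -2.48 for the double mutant against N2 and -1.44 between the mutants, beside -0.0183, -0.0253 and 0.0127 for all genes. col-19, the standard marker of the adult epidermis, had 0.164, 0.0703, 0.225, 0.267 and 3.22 CPM in let-7(n2853), against 0, 0.0723, 0.0835, 3.76 and 57.5 CPM in the double mutant and 0.190, 0.150, 0.162, 55 and 329.9 CPM in N2. It was near 0 in all 3 strains to 32 h, and at 36 h it stood at 0.98% of N2 in let-7(n2853) and at 17.4% in the double mutant. In the lin-41(xe11) strain col-19 stood at 24.7% of N2 at 36 h. The difference between the mutants was -3.54 ± 0.58 (adjusted p = 0.000156). That call was lost without the 36 h library of let-7(n2853), at -2.12, and without the 36 h libraries of all strains, at -1.75, and DESeq2 gave 0.21 without a call.

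rol-1, another cuticle collagen, had 1.28, 0.0703, 0.150, 8.08 and 20.4 CPM in let-7(n2853), against 1.04, 0.289, 8.10, 115 and 281 CPM in the double mutant and 1.64, 0.751, 72.3, 1192 and 1559.8 CPM in N2. The strains separated from 32 h, in the order let-7(n2853), double mutant and N2 from low to high. rol-1 differed by -3.43 ± 0.55 between the mutants (adjusted p = 0.000195) and by -2.71 between the double mutant and N2 (adjusted p = 0.00325), and DESeq2 gave -2.18 between the mutants without a call. At 36 h rol-1 stood at 24.0% of N2 in the lin-41(xe11) strain and at 18.0% in the double mutant. bli-1, a collagen of the struts in the adult cuticle, followed the same course to 34 h but was not called between the mutants. It had 1.64, 0.739, 21.7, 165 and 93.9 CPM in let-7(n2853), against 2.54, 3.76, 81.1, 292 and 113 CPM in the double mutant and 1.64, 21.4, 825, 1991 and 1625 CPM in N2. At 36 h bli-1 stood at 5.78% of N2 in let-7(n2853), at 6.96% in the double mutant and at 7.87% in the lin-41(xe11) strain. Its difference between the mutants was -0.98 ± 0.43 (adjusted p = 0.117, 95% interval -1.87 to -0.098), and it was called without the 28 h library of let-7(n2853), at -1.23. bli-2, another strut collagen, differed by -0.65 (adjusted p = 0.263) between the mutants, was called at -1.11 without the 28 h library of let-7(n2853), and differed by -1.27 (adjusted p = 0.148) between the double mutant and N2.

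**Figure D2:**
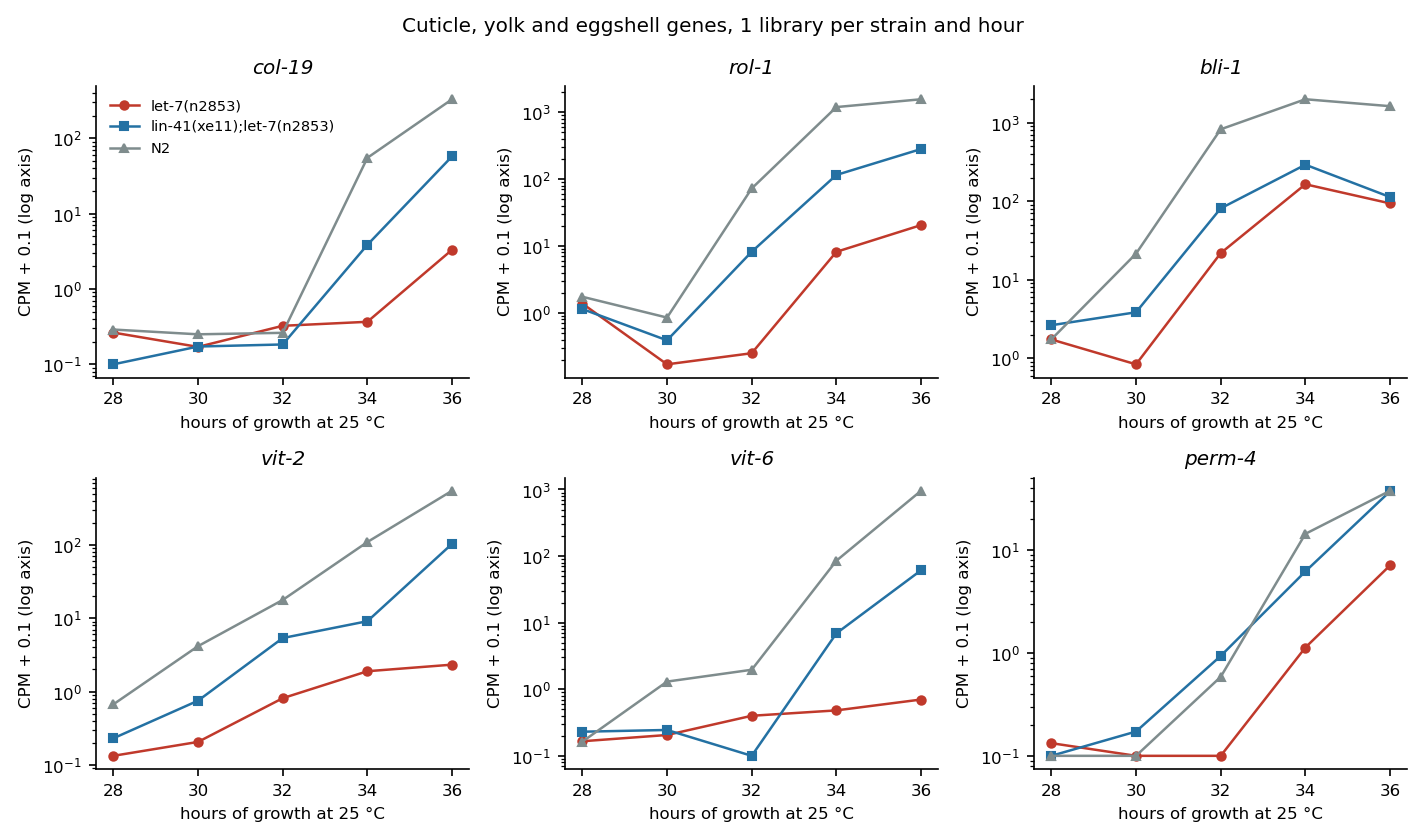
CPM plus 0.1 (log axis) of 3 cuticle collagens, 2 yolk genes and the eggshell gene perm-4 against hours of growth at 25 °C in let-7(n2853) (red circles), the double mutant (blue squares) and N2 (grey triangles), 1 library per point. At 36 h the double mutant lies between the other strains for col-19, rol-1, vit-2 and vit-6, near let-7(n2853) for bli-1, and near N2 for perm-4.

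Among all 134 collagen genes tested, 5 were higher and 22 lower in let-7(n2853) than in the double mutant, with a median of -0.221. The shares among all genes tested were 11.4% higher and 11.6% lower. The 22 became 7 without the 36 h library of let-7(n2853), 10 without the 36 h library of the double mutant, 5 without the 36 h libraries of all strains, 8 in DESeq2 and 0 with the double mutant taken 2 h earlier, with medians of -0.11, -0.108, -0.0919, -0.162 and -0.12. The 5 higher became 3, 2 or 1 in these and in the fits without the 32 h library of let-7(n2853) or the 30, 32 or 34 h library of the double mutant. Against N2, 51 fell in let-7(n2853) and 22 fell in the double mutant, and none rose in either. Among all genes 12.6% were lower and 10.4% higher in let-7(n2853), and 0.579% lower and 0.301% higher in the double mutant. Of the 46 collagens that fell at least 2-fold in let-7(n2853), 6 were relieved, 15 partly relieved, 7 not relieved and 18 undecided. col-175 was a partly relieved one, with 0.0328, 0.0703, 0.0749, 14.3 and 21.5 CPM in let-7(n2853), against 1.04, 0.217, 9.11, 152 and 409 CPM in the double mutant and 0.126, 1.65, 285, 2719 and 3334 CPM in N2. Its difference between the mutants was -3.98 ± 0.52 (adjusted p = 1.15e-05), and the double mutant remained at -3.67 against N2 (adjusted p = 0.000123). DESeq2 gave -3.0 between the double mutant and N2 without a call (adjusted p = 0.156), so that col-175 counted as relieved there. col-120 was a collagen that was not relieved, with 0.492, 0.598, 0.487, 0.839 and 1.73 CPM in let-7(n2853), against 0.651, 0.723, 0.334, 3.47 and 13.5 CPM in the double mutant and 0.821, 0.751, 0.567, 396 and 825 CPM in N2. Both mutants stayed under 1 CPM to 32 h and far below N2 after that, and their difference of -1.68 ± 0.96 was not called (adjusted p = 0.29). At 36 h the lin-41(xe11) strain was at 6.68% of N2 for col-120 and at 17.5% for col-175. The double mutant was at 1.64% and 12.3% in that order. col-152 was among the relieved collagens, with 0.0656, 0.106, 0.0374, 0.0381 and 0.106 CPM in let-7(n2853), against 0, 0.217, 0, 1.49 and 17.4 CPM in the double mutant and 0.190, 0.0751, 0.0809, 12.4 and 30.7 CPM in N2. It differed by -5.18 ± 0.96 between the mutants (adjusted p = 4e-05) and was -1.62 in the double mutant against N2 (adjusted p = 0.144). That difference was -5.78 without the 30 h and -2.94 without the 36 h library of let-7(n2853) and -4.19 without that of the double mutant, and it was lost without the 36 h libraries of all strains (-2.36) and in DESeq2 (-1.68).

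The other collagens counted as relieved were col-138, col-110, col-145, col-94 and col-93. Their means in the double mutant were 30.2%, 78.8%, 107.8%, 102.8% and 98.8% of N2 in that order, so col-138 kept a deep difference from N2 (-1.62) that was not called (adjusted p = 0.0991). The falls that were not relieved and are not collagens included ceh-60, cutl-15 and icmt-1. ceh-60, a homeobox gene whose product raises yolk expression in the intestine, averaged 3.26 CPM in let-7(n2853), 4.04 CPM in the double mutant and 7.84 CPM in N2. Its difference between the mutants was -0.34 and was not called, and both mutants were called lower than N2. cutl-15 encodes a cuticlin-like protein and icmt-1 an isoprenylcysteine methyltransferase.

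Yolk protein genes were partly relieved. Of 6 vitellogenin genes in the table, vit-1, vit-2 and vit-6 passed the filter on low values. All 3 were called lower in let-7(n2853) than in the double mutant, and lower in let-7(n2853) than in N2. All 3 were also called lower in the double mutant than in N2. Among all genes the shares called lower were 11.6%, 12.6% and 0.579% in that order. vit-2 had 0.0328, 0.106, 0.711, 1.79 and 2.23 CPM in let-7(n2853), against 0.130, 0.650, 5.26, 9.01 and 103 CPM in the double mutant and 0.569, 4.06, 17.6, 109 and 547 CPM in N2. At every hour let-7(n2853) was lowest and N2 highest. The difference between the mutants was -3.88 ± 0.50 (adjusted p = 8.13e-06), and against N2 it was -6.51 ± 0.48 in let-7(n2853) (adjusted p = 5.43e-10) and -2.64 ± 0.37 in the double mutant (adjusted p = 0.000234). Without the 36 h library of let-7(n2853) the difference between the mutants was -2.48, and without that of 34 h it was -4.72, both called. In the lin-41(xe11) strain vit-2 stood at 540.4 CPM at 36 h.

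vit-6 had 0.0656, 0.106, 0.299, 0.381 and 0.601 CPM in let-7(n2853), against 0.130, 0.145, 0, 6.81 and 61.1 CPM in the double mutant and 0.0632, 1.2, 1.86, 85.0 and 957 CPM in N2. It was close to 0 in both mutants to 32 h and at 34 and 36 h it was more than 1 CPM in the double mutant but not in let-7(n2853). The difference of -5.33 ± 0.83 (adjusted p = 7.58e-05) was lost without the 36 h library of let-7(n2853) (-2.18), without the 36 h libraries of all strains (-2.48) and in DESeq2 (-1.02). vit-1 had 1.11, 1.76, 10.8, 23.3 and 19 CPM in let-7(n2853), against 1.04, 6.22, 20.1, 33.2 and 62.4 CPM in the double mutant and 2.72, 10.2, 38.2, 68.3 and 163 CPM in N2. Its difference between the mutants was -1.0 ± 0.24 (adjusted p = 0.00396). The intestine makes yolk, and the summed level of its 15 markers, all of them above the filter, ran from 5836 to 7086 CPM in let-7(n2853), against 7284 to 10260 CPM in the double mutant and 6900 to 9528 CPM in N2. let-7(n2853) and the double mutant did not overlap in this sum, and its part in the yolk values was not tested.

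The relieved falls included perm-4, perm-2, oac-10 and ule-3, which are described next, chosen for the size of their change and not as a tested list. perm-4, needed for the permeability barrier of the eggshell, had 0.0328, 0, 0, 1.03 and 7.0 CPM in let-7(n2853), against 0, 0.0723, 0.835, 6.10 and 37.2 CPM in the double mutant and 0, 0, 0.486, 14.3 and 37.6 CPM in N2. The double mutant and N2 came to similar levels at 36 h, and let-7(n2853) stood at 18.6% of N2. perm-4 differed by -2.51 ± 0.39 between the mutants (adjusted p = 0.000195) and by -0.46 between the double mutant and N2 (adjusted p = 0.635). oac-10, named as an O-acyltransferase homolog, had 0.0983, 0, 0.0749, 0.763 and 1.59 CPM in let-7(n2853), against 0, 0.0723, 0.167, 5.89 and 19.9 CPM in the double mutant and 0, 0, 0.809, 11.2 and 19.7 CPM in N2. It differed by -3.09 ± 0.45 between the mutants (adjusted p = 1.64e-05) and by -0.49 between the double mutant and N2 (adjusted p = 0.621). ule-3, which encodes a protein of the uterine lumen, was at 0 in both mutants to 32 h and had 0.114 and 5.27 CPM at 34 and 36 h in let-7(n2853), against 1.28 and 38.4 CPM in the double mutant and 3.75 and 29.9 CPM in N2. Its difference of -2.80 ± 0.45 (adjusted p = 0.000651) was -3.75 without the 36 h library of let-7(n2853) and was lost without that of the double mutant, at -2.06. perm-2, a partner of perm-4, differed by -1.74 ± 0.49 (adjusted p = 0.025), and this call was lost without the 34 h library of let-7(n2853) (-1.39) or the 36 h library of the double mutant (-1.27) and was -2.75 without the 36 h library of let-7(n2853). With the double mutant taken 2 h earlier, perm-4 (0.064), perm-2 (1.32) and ule-3 (1.89) turned to the other sign, and oac-10 was -0.78 without a call. ule-2, another uterine lumen gene, was undecided, with -0.69 between the mutants (adjusted p = 0.224).

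Of 17 oocyte genes, 11 were lower in let-7(n2853) than in the double mutant and 0 were higher, with a median of -0.445, beside 11.6% lower and 11.4% higher among all genes. The 11 became 9 with library totals and 7 without the 36 h library of the double mutant. Against N2, 14 were lower in let-7(n2853), and 0 were called in the double mutant. Among all genes these shares were 12.6% and 0.88%, so 0 of 17 in the double mutant is near the share of all genes. From 18 to 26 h, 0 of the 17 were called between the mutants. cbd-1, which encodes a chitin-binding protein of the eggshell, had 92.4, 94.1, 112, 171 and 313 CPM in let-7(n2853), against 103, 129.5, 173, 243 and 487 CPM in the double mutant and 107, 127, 188, 329.6 and 463 CPM in N2. It was lower in let-7(n2853) at 5 of 5 hours, with a difference of -0.48 ± 0.10 (adjusted p = 0.00156). The RNA-binding proteins of oocyte growth oma-1 and oma-2 differed by -0.70 and -0.63, the chitin synthase chs-1 by -0.44 and the yolk receptor rme-2 by -0.42, all called. The median summed level of the 17 genes was 217.2 CPM in let-7(n2853), 311.1 CPM in the double mutant and 356.1 CPM in N2.

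Of 21 germline genes, 12 were lower in let-7(n2853) than in the double mutant, with a median of -0.217, and 10 were lower in let-7(n2853) than in N2, while 0 were called in the double mutant against N2. Among all genes the shares were 11.6%, 12.6% and 0.88% in that order. The 12 became 6 with library totals, 7 without the 30 h library of the double mutant and 6 without the 36 h libraries of all strains. At 18 to 26 h, 6 were called lower. glh-1, a helicase of germ granules, had 269.8, 356, 395, 419.5 and 463 CPM in let-7(n2853), against 361, 401, 477, 491 and 571 CPM in the double mutant and 322, 376, 426, 532 and 599 CPM in N2. It rose with the hours in all 3 strains and was lower in let-7(n2853) than in the double mutant at 5 of 5 hours, with a difference of -0.28 ± 0.05 (adjusted p = 0.000465). The summed level of the list ran from 1754 to 2903 CPM in let-7(n2853), against 1968 to 3693 CPM in the double mutant and 1846 to 3829 CPM in N2. The oocyte and germline counts moved with the pairing of hours: with the double mutant taken 2 h later all 17 oocyte and 18 germline genes were lower in let-7(n2853), and with it taken 2 h earlier 0 were lower and 3 of each list were higher.

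For many relieved rises the mutants also differed before the late window. Of the 39 relieved genes that rose at least 2-fold against N2, 36 were called in the same direction between the mutants at 18 to 26 h, beside 10.8% of all genes called higher there, and their median difference was 1.38 late and 1.40 early. Of the 88 relieved falls, 32 were called early in the same direction, beside 11.2% of all genes called lower there, with medians of -1.22 late and -0.666 early. Among all genes, 0.624% were at least 2-fold higher and 0.459% at least 2-fold lower in the early window. Of the 22 partly relieved falls and the 15 falls that were not relieved, 0 were called early. The relieved class requires a late call between the mutants and the not relieved class excludes one, so their early counts cannot be compared. Some partly relieved falls, such as col-19 and vit-6, were still near 0 CPM in both mutants when the late window began. For such genes an early call may have been out of reach, so no contrast between the classes is drawn from these counts. Across all genes, the difference between the mutants was called as changed between the windows for 0 genes by edgeR's quasi-likelihood test (0%), with 766 at an unadjusted p under 0.05, and for 2 genes by DESeq2.

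**Figure D3:**
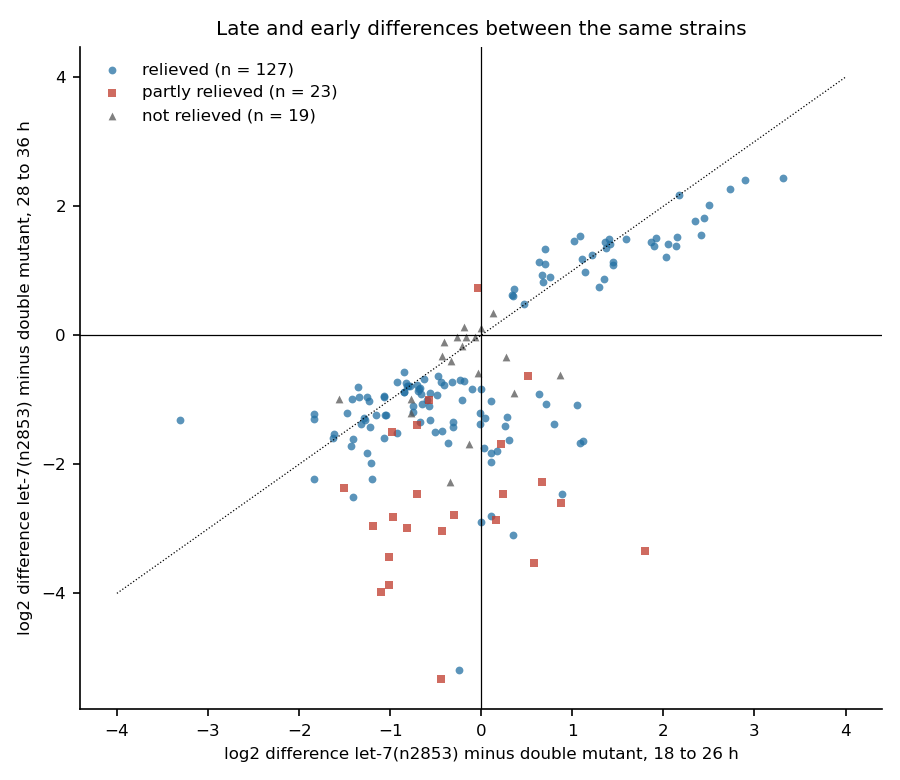
Log2 difference between let-7(n2853) and the double mutant at 28 to 36 h against the same difference at 18 to 26 h, for the 127 relieved (blue circles), 23 partly relieved (red squares) and 19 not relieved genes (grey triangles), with a dotted line of equal differences. The relieved rises lie near the line, and most partly relieved falls lie below it.

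ugt-66, a UDP-glucuronosyltransferase gene, had 89.9, 81.8, 46.7, 46.6 and 111 CPM in let-7(n2853), against 22.1, 17.3, 6.43, 10.8 and 25.8 CPM in the double mutant and 23.6, 13.8, 6.88, 50.2 and 10.2 CPM in N2. let-7(n2853) and the double mutant did not overlap, and the 34 h library of N2 lay apart from its neighbours. ugt-66 differed by 2.27 ± 0.36 late (adjusted p = 8.02e-05) and by 2.73 early between the mutants. pgp-5, an ABC transporter of the P-glycoprotein family, had 27.3, 120.1, 108, 31.8 and 17.3 CPM in let-7(n2853), against 7.55, 14.7, 7.02, 8.08 and 18.8 CPM in the double mutant and 9.16, 10.1, 10.5, 9.68 and 9.28 CPM in N2. The mutants overlapped at 36 h alone, where the double mutant was slightly higher. pgp-5 differed by 2.18 ± 0.41 late (adjusted p = 0.000556) and by 2.17 early. The lin-41(xe11) strain had 26.7, 65.5, 22.8, 6.82 and 16.7 CPM. Without the 36 h libraries of all strains the difference between the mutants was 2.77.

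Of 13 P-glycoprotein genes tested, 6 were higher in let-7(n2853) than in the double mutant and 0 lower, with a median of 0.232. The shares among all genes were 11.4% higher and 11.6% lower. The 6 became 3 without the 36 h library of let-7(n2853) or the 32 h library of the double mutant. pgp-11 was higher by 0.84 late and 0.89 early, both called. Of 19 stress and immunity genes, 7 were higher and 1 lower, with a median of 0.11 (2 were higher with the double mutant taken 2 h later). gpdh-1, the glycerol-3-phosphate dehydrogenase induced by osmotic stress, had 17.1, 21.2, 9.84, 9.57 and 32.2 CPM in let-7(n2853), against 5.27, 6.0, 2.84, 5.6 and 12.8 CPM in the double mutant and 7.39, 5.11, 2.43, 12.9 and 5.6 CPM in N2. It was higher in let-7(n2853) than in the double mutant at 5 of 5 hours, by 1.51 ± 0.30 (adjusted p = 0.000594), and by 1.92 early. irg-1, irg-4 and irg-5, genes induced by infection, were higher by 1.21, 0.57 and 0.69, and by 2.03, 0.74 and 1.14 early, all called. The small heat shock gene hsp-16.2 was higher by 0.83 late and 0.64 early, both called, and nlp-31, an antimicrobial peptide gene, differed by -0.65 late and -0.60 early, both called.

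Of 74 ribosomal protein genes tested, 50 were lower in let-7(n2853) than in the double mutant, 0 higher and 24 not called late, with a median of -0.288, and 41 were lower and 2 higher early. Against N2, 35 were lower and 3 higher in let-7(n2853), while 1 was higher and 0 lower in the double mutant. Between the mutants, the shares among all genes were 11.6% lower and 11.4% higher late, and 11.2% lower and 10.8% higher early. Against N2 they were 12.6% lower and 10.4% higher in let-7(n2853), and 0.579% lower and 0.301% higher in the double mutant. rps-29 had 103, 102, 125, 109 and 109.5 CPM in let-7(n2853), against 218, 195, 198, 200.5 and 214 CPM in the double mutant and 173, 190.0, 209, 201 and 192 CPM in N2. let-7(n2853) lay below every library of the double mutant and N2, and rps-29 differed by -0.91 ± 0.06 between the mutants late (adjusted p = 2.37e-10) and by -1.11 early. Of 33 proteasome subunit genes, 20 were lower in let-7(n2853) than in the double mutant late and 13 early, with a late median of -0.165 (10 lower and 1 higher late with library totals). The 20 became 13 without the 32 or the 36 h library of let-7(n2853) and 12 without the 32 h library of the double mutant. The deeper libraries of let-7(n2853) span both windows, and the part of library preparation in differences present at all hours was not tested.

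Of 15 intestine genes, 7 were lower and 1 higher in let-7(n2853) than in the double mutant late, and 7 were lower early, beside 11.6% of all genes lower late and 11.2% early. act-5, the actin of intestinal microvilli, had 661, 684, 787, 779 and 529 CPM in let-7(n2853), against 983, 1348, 1521, 1081 and 855 CPM in the double mutant and 955, 1213, 1339, 861 and 819 CPM in N2. let-7(n2853) lay below every library of the double mutant and N2, with -0.73 ± 0.08 between the mutants (adjusted p = 5.52e-07) and -0.69 early. mtl-2, a metallothionein gene, differed by -0.92 late and -0.73 early, and cpr-1, a cathepsin-B-like protease gene, by -0.89 late and -1.03 early. The list's median of -0.0901 became 0.00302 with library totals in place of TMM scaling, while the counts of calls remained 7 and 1.

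Of 19 neuron genes, 7 were higher and 1 lower in let-7(n2853) than in the double mutant late, and 7 were higher and 3 lower early. The 7 late calls became 4 without the 30 or 32 h library of let-7(n2853) or the 32 h library of the double mutant, and 0 with the double mutant taken 2 h earlier. In the late window unc-13, a synaptic vesicle priming factor, was higher by 0.43 and the prohormone convertase egl-3 differed by -0.39, both called. Of 15 muscle genes 5 were lower, of 11 pharynx genes 3 were lower, and of 21 cell cycle genes 5 were lower and 1 higher, beside 11.6% lower and 11.4% higher among all genes. The 5 muscle genes became 3 without the 32 h library of the double mutant. The 5 cell cycle genes became 8 and 2 without the 28 and 36 h libraries of let-7(n2853) and 3 without the 30 or 32 h library of the double mutant. Of 26 molting genes 1 was higher and 2 were lower (2 and 0 with library totals), and of 14 seam cell and fusion genes 0 were called by edgeR. Of 11 sperm genes 1 was higher and 2 were lower, of 4 major sperm protein genes 1 was lower, of 10 epidermis genes 1 was higher and 2 were lower, and of 21 histone genes 2 were higher and 3 lower. With library totals 2 seam cell and fusion genes were called higher, and the medians of the muscle, epidermis, vulva, histone and microRNA machinery lists changed from below 0 to above 0. In none of these lists was a gene called between the double mutant and N2. Among all genes 0.88% were called there, so lists of this size would hold few calls or none at that share.

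Of 17 vulva genes, 3 were higher and 2 lower in let-7(n2853) than in the double mutant, beside 11.4% higher and 11.6% lower among all genes. Without the 36 h library of let-7(n2853) 1 vulva gene was higher. apx-1, a Delta-like Notch ligand, had 1.48, 1.37, 1.35, 1.56 and 2.72 CPM in let-7(n2853), against 2.28, 3.18, 3.09, 4.11 and 7.35 CPM in the double mutant and 2.21, 2.4, 3.08, 6.01 and 7.04 CPM in N2. It was lower in let-7(n2853) at every hour, with a difference of -1.18 ± 0.18 (adjusted p = 3.15e-05), with -0.03 between the double mutant and N2 (adjusted p = 0.964) and -0.75 between the mutants early. cog-1, a homeobox gene of vulval patterning, differed by -0.74 ± 0.12 late (adjusted p = 8.28e-05) and by -0.65 early. let-23, the EGF receptor, was higher by 0.33 ± 0.09 (adjusted p = 0.0066). Among 11 genes of the microRNA machinery, dcr-1, which encodes Dicer, was higher by 0.36 (adjusted p = 0.000292) and drsh-1, which encodes Drosha, by 0.34, and 2 genes were lower.

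**Figure D4:**
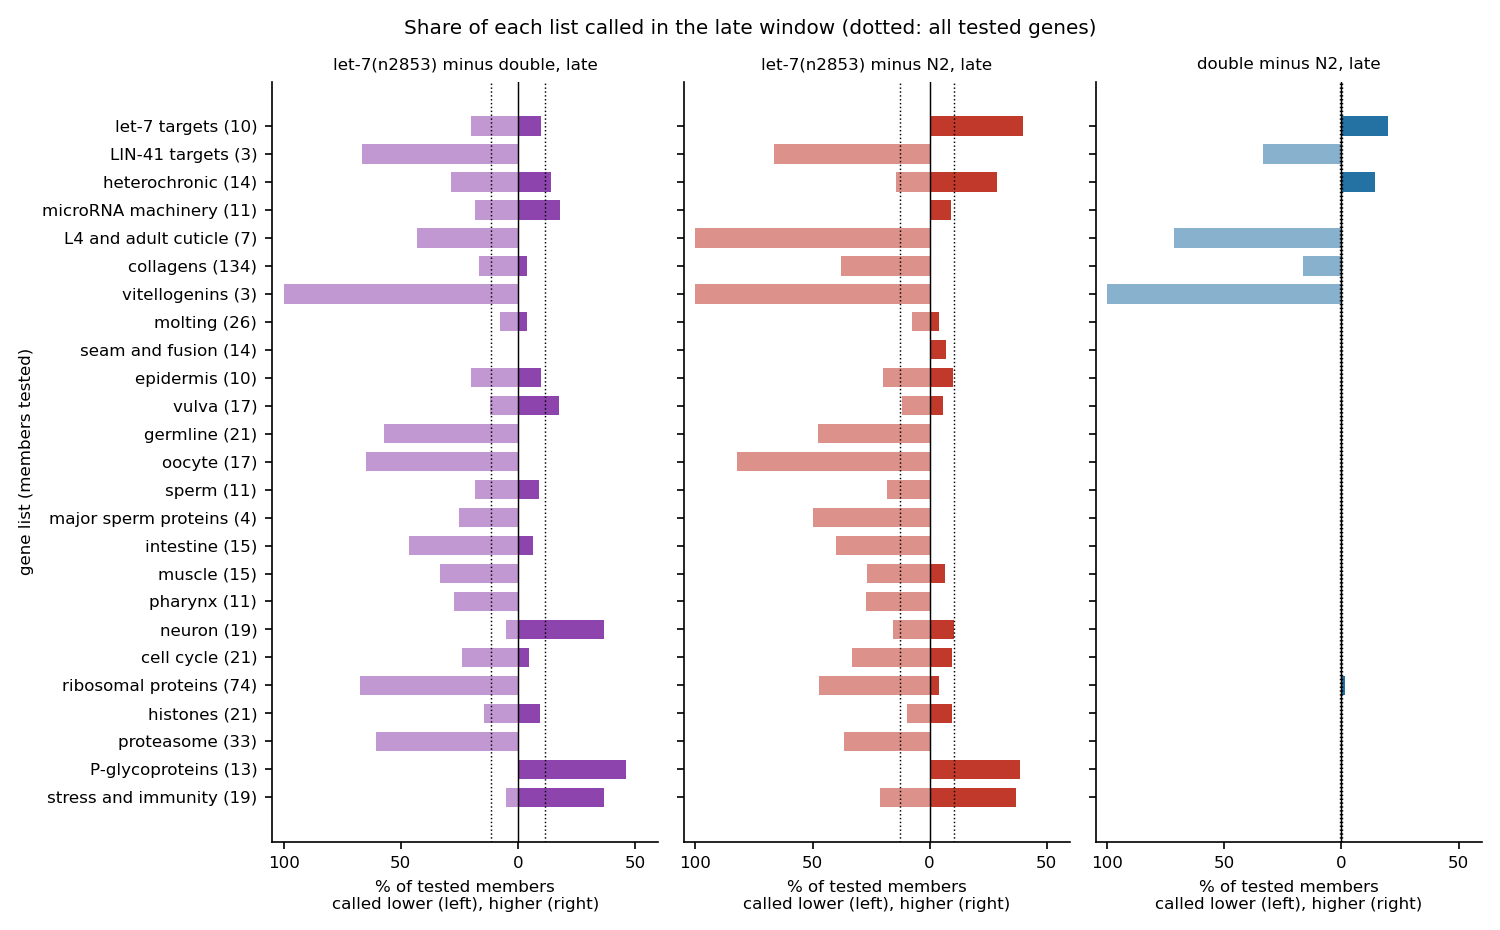
Percent of the tested members of each gene list called higher (right, dark) and lower (left, pale) in let-7(n2853) minus the double mutant, let-7(n2853) minus N2 and the double mutant minus N2 at 28 to 36 h, with dotted lines for all genes tested. Oocyte, germline, ribosomal protein and proteasome lists have calls in the first panels and 0 or 1 in the last, while cuticle and vitellogenin lists have calls in all panels.

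A few cuticle genes were lower in the double mutant than in let-7(n2853). col-40 had 1.84, 2.46, 4.34, 5.6 and 3.43 CPM in let-7(n2853), against 1.11, 0.145, 0.251, 1.28 and 0.357 CPM in the double mutant and 1.77, 2.03, 1.62, 28.8 and 0.640 CPM in N2. The double mutant was the lowest strain at every hour, and the 34 h library of N2 stood far above the rest. col-40 differed by 2.68 ± 0.81 between the mutants (adjusted p = 0.0147), with -0.16 between let-7(n2853) and N2 and -2.84 between the double mutant and N2 (adjusted p = 0.103). The call was lost without the 34 h library of the double mutant (2.38) and without the 36 h libraries of all strains (2.46), and it was 3.36 without the 28 h library of the double mutant. col-2 differed by 2.38 between the mutants (adjusted p = 0.00702) and by -2.2 between the double mutant and N2 (adjusted p = 0.121). The cuticle genes col-102, cut-1 and grl-25 were higher in let-7(n2853) than in the double mutant by 2.12, 1.73 and 2.73, and in N2 all 3 peaked in the 34 h library as well. The col-102 call was lost without the 30 h (1.89) or 34 h (1.97) library of the double mutant, and the difference was 2.75 without that of 28 h. The cut-1 call was lost without the 32 h library of let-7(n2853) (1.47) or the 30 h library of the double mutant (1.44), and grl-25 differed by 3.43 without the 34 h library of let-7(n2853).

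How much of a change was left in the double mutant depended, for most partly relieved genes, on which hours were paired. With the double mutant libraries taken 2 h later than their labels (30 to 38 h against 28 to 36 h), 21 of the 23 partly relieved genes became relieved, and lin-41 and mab-3 remained partly relieved. In that pairing lin-41 differed by 0.79 between the mutants and by 1.01 between the double mutant and N2 (adjusted p = 0.000343), and mab-3 by -1.1 and -1.97 (adjusted p = 0.00948). Of the 19 genes that were not relieved, 3 remained so (daf-12, Y48E1B.8 and F58E6.13), 3 became relieved and 8 became undecided. In that pairing the other 5 were not called, or were under 2-fold, between let-7(n2853) and N2. daf-12 differed by 1.04 between the double mutant and N2 (adjusted p = 8.58e-07), Y48E1B.8 by 1.02 (adjusted p = 0.0472) and F58E6.13 by -2.64 (adjusted p = 0.018). The median of the 22 partly relieved falls between the double mutant and N2 was -0.471 in that pairing, against -2.70 at the labelled hours. With the double mutant taken 2 h earlier, 22 of the 23 partly relieved genes became not relieved, lin-41 among them with 0.43 between the mutants and 1.34 between the double mutant and N2, and mab-3 remained partly relieved.

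**Figure D5:**
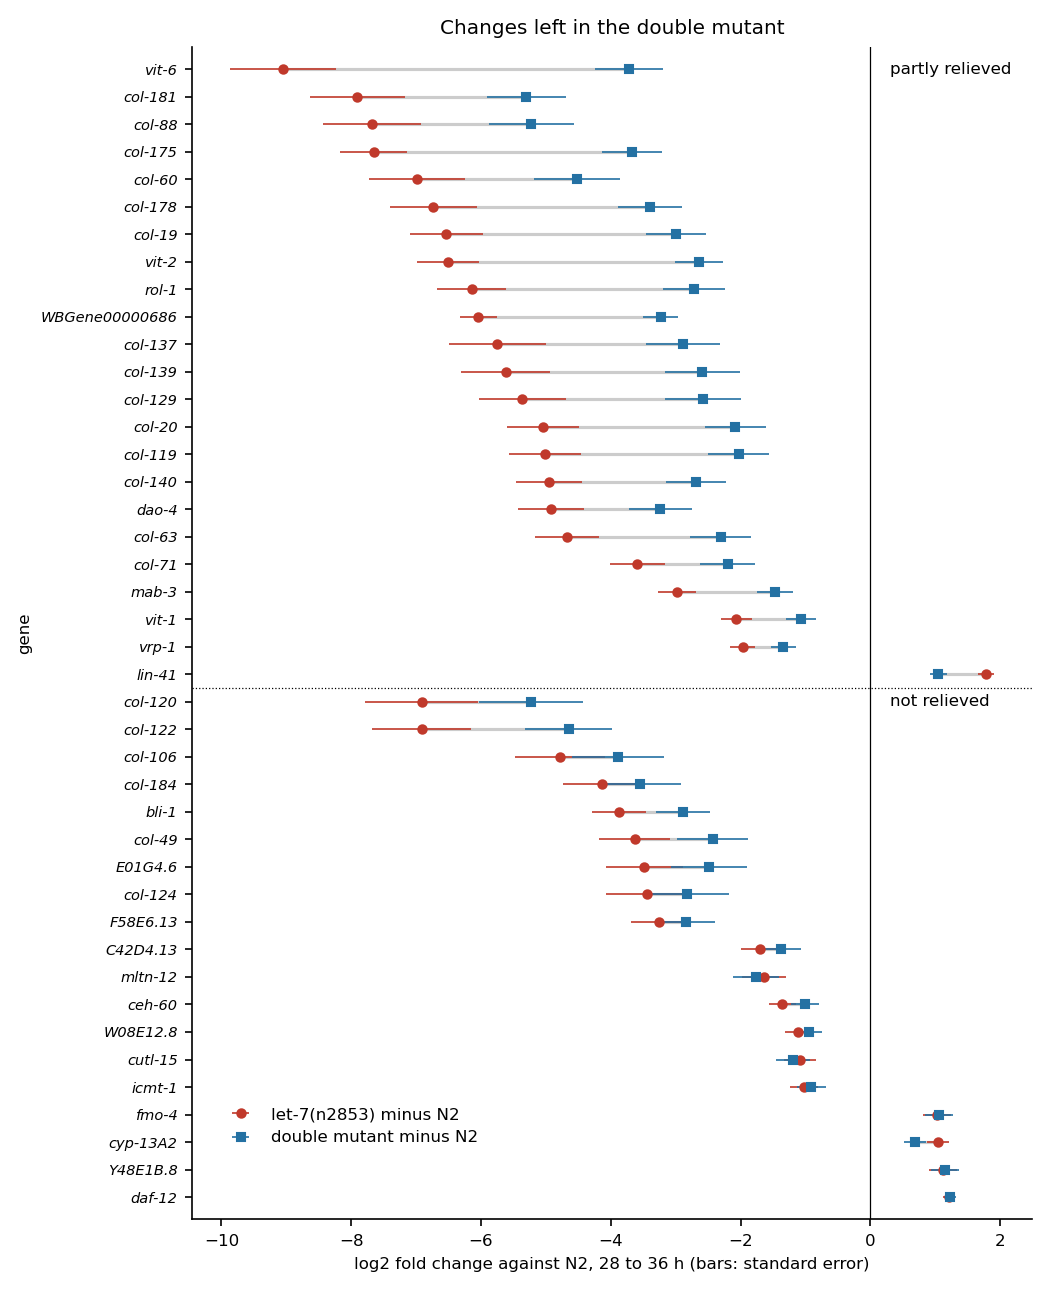
Log2 fold change against N2 at 28 to 36 h (x axis, bars are standard errors) of let-7(n2853) (red circles) and the double mutant (blue squares) for the 23 partly relieved genes (above the dotted line) and the 19 not relieved genes (below it). For the partly relieved genes the double mutant lies closer to 0, and for daf-12, fmo-4 and Y48E1B.8 the points coincide.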

How the data were processed

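The deposited counts, 1 per gene and library for 20182 genes, were made by the authors; how reads were mapped and counted, and the build, are not given in the sources used here. A deposited table of log2 values was not used. Symbols came from a reference table for 18781 IDs. The 13295 genes whose CPM averaged 1 or more over the 40 libraries from 18 to 36 h were tested with edgeR 4.0.16 (R 4.3.3): TMM scaling and a quasi-likelihood fit with a factor for the hour and, for every mutant strain, an early and a late term, 16 columns and 24 residual degrees of freedom. CPM values use TMM-scaled library sizes, and hourly differences a prior count of 2. The hour pairs the libraries: deviations of same-hour libraries of the 2 mutants correlated at 0.761 to 0.959. The lowest chi-square, per degree of freedom, between 2 of the 10 libraries was 22.3, so none was a duplicate. On simulated counts for the late comparison of the mutants (13295 genes), the test recovered 98%, 92%, 100% and 100% of 50 genes each changed by 1, -1, 2 and -2 (log2), with 17 false calls. The changed genes were drawn from those averaging at least 5 CPM, and each was shifted alike at all late hours. Recovery of genes of few CPM, such as mab-3, ule-3 and oac-10, is therefore not known from these rates. The same holds for differences confined to the last hours, as in the late collagens and yolk genes. Named genes were lin-41, the measured members of the let-7 target, LIN-41 target, cuticle and vitellogenin lists, the 10 largest same-sign rises and falls, the 3 smallest p of each other list and the 6 largest changes against N2 per class and direction. Other genes named were chosen after their values were seen. The members, the 25 lists and the rule were chosen with earlier results of these data known. Alternatives were other scalings, DESeq2 1.42.0, other filters, thinned counts, no replicate block, double mutant hours moved by 2 h and leaving out each library. The late N2 libraries left out and the fit without the 36 h libraries were added after seeing the data. A planned search for microRNA seed matches was not run, as no sequence was at hand.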

Additional observations from a re-analysis of the deposited data

Results flagged for a closer look

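The 5 hourly differences between let-7(n2853) and the double mutant were screened for a single hour far from the others in 117 named genes, and 4 genes (3.42%) had one, where chance gives about 5%. col-20, a cuticle collagen gene, differed by -4.36 at 36 h, while its other hours ran from -1.78 to -1.16. daf-12 differed by -0.501 at 30 h, while its other hours ran from 0.0259 to 0.234. ugt-66 differed by 2.83 at 32 h, while its other hours ran from 2.02 to 2.23. unc-104, a kinesin gene of neurons, differed by 0.692 at 32 h, while its other hours ran from 0.108 to 0.26. These values are log2 differences of single libraries with a prior count of 2 and carry no error of their own.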

How the results depend on the processing

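The count of genes called between let-7(n2853) and the double mutant (3059) was 2068 to 3694 under 10 alternatives and 696 with no replicate block, that is with windows in place of hours. Leaving out 1 library gave 2248 to 3018 (let-7(n2853)) and 2394 to 2759 (double mutant). With no replicate block there were 566 calls for let-7(n2853) against N2, 1 for the double mutant against N2, 730 between the mutants early, and 33 relieved, 0 partly relieved, 0 not relieved and 45 undecided genes. In that fit lin-41 (0.69), mab-3 (-1.53) and vit-2 (-4.61) were not called. With the double mutant 2 h earlier the counts were 1770 (let-7(n2853) against N2), 1741 (double mutant against N2), 1422 (mutants early), 52 relieved, 8 partly relieved, 94 not relieved and 25 undecided. With it 2 h later they were 1547 (let-7(n2853) against N2), 241 (double mutant against N2), 19 genes changed between windows, 2 partly relieved, 3 not relieved and 31 undecided. Without the 36 h libraries, 1967 genes were called for let-7(n2853) against N2 and 8 were partly relieved. DESeq2 gave 2 genes changed between windows, 8 partly and 32 not relieved. A mean CPM of at least 5 left 50 relieved and 46 undecided, from fewer genes tested, and no filter 181 undecided. Without the 2-fold limit 1922 were relieved, 65 not relieved and 1050 undecided; with a 4-fold limit 28, 9 and 12; at an adjusted p of 0.01, 10 were partly relieved. Leaving out 1 library of let-7(n2853), the double mutant or N2 gave 2295 to 3056, 2962 to 3102 and 2339 to 3140 calls for let-7(n2853) against N2, and 111 to 132, 47 to 100 and 38 to 143 for the double mutant against N2. It gave 111 to 137, 102 to 128 and 121 to 143 relieved genes, 8 to 25, 9 to 18 and 14 to 26 partly relieved, 18 to 30, 6 to 17 and 5 to 36 not relieved, and 68 to 95, 96 to 127 and 55 to 99 undecided. Early calls ran from 2860 to 2966 and from 2861 to 2979 without 1 library of let-7(n2853) or of the double mutant, and genes changed between windows from 0 to 1 in both. The lowest counts for the double mutant against N2 came without its 32 h (54) and 34 h (47) libraries and without the 34 h library of N2 (38). With library totals, 69.4% instead of 45.3% of the calls of let-7(n2853) against N2 were higher, and 79.4% instead of 49.1% of the early calls between the mutants. Of the 133 calls of at least 2-fold between the mutants, 98 to 133 were still called with other scalings, DESeq2, no filter, thinned counts or the 10 libraries alone. Of the same 133, 96 were called without the 36 h libraries, 106 and 69 with the double mutant 2 h later and earlier, 53 at a mean CPM of at least 5, 101 to 129 without 1 library, and 36 with no replicate block. Differences that turned to the other sign with the double mutant 2 h earlier were cbd-1 (0.046), col-181 (0.49), col-19 (0.70), col-60 (0.15), col-88 (0.28), cyb-1 (0.089), F17E9.4 (1.61), msp-142 (1.45), msp-64 (0.57), nspd-2 (1.16), perm-2 (1.32), perm-4 (0.064), pos-1 (0.11), ssp-16 (0.93), ule-3 (1.89), ule-5 (1.38), vit-1 (0.19) and Y45F10C.4 (1.17). col-19 turned in DESeq2 (0.21) and spe-11 with the double mutant 2 h later (-1.13). The cause of these changes was not tested. Depth limits genes of under 1 CPM, which were not tested, and genes near it such as mab-3, ule-3 and oac-10.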
